A study of Homo sapiens with 4 samples.

Results

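The genes of the autophagy machinery were followed in breast cancer cells carrying a hairpin against TRPM7, an ion channel with a kinase domain that passes magnesium, calcium and zinc. The set held 36 genes, chosen by name and found through the gene symbols of the array's probe table, among 30925 genes with a symbol there. A symbol matched for 35 of them, with 57 probes in all. VMP1 was listed only under its older symbol, TMEM49, and adds 1 probe, so the set rests on 58 probes. The cells were MDA-MB-231, an established human line of mesenchymal breast cancer cells, and RNA was read on Illumina HumanHT-12 v4 bead arrays. The shT7#1 group had 2 arrays, from cells transduced with a single TRPM7 hairpin. The shCntrl group also had 2 arrays, from cells transduced with a scrambled hairpin. The series title concerns TRPM7, the mesenchymal state, cell tension and the transcription factor SOX4; it does not mention autophagy. Whether a group's arrays stand for independent cultures, and whether the transduced cells were a pool or 1 clone, is not stated in the labels. The p-values therefore reflect array-to-array spread that may be technical.

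Autophagy encloses cytoplasm in a double membrane, the autophagosome, and delivers it to the lysosome for breakdown. The ULK kinase complex starts the process, and a phosphatidylinositol 3-kinase complex built on BECN1 and PIK3C3 marks the site. Lipid carriers extend the membrane, a pair of ubiquitin-like conjugation pathways attach proteins of the ATG8 family (the LC3 and GABARAP proteins) to it, and cargo receptors bind ATG8 proteins and load the contents. Much of this control acts on proteins and membranes, which arrays of RNA do not measure.

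Between 19492 and 20261 of the 47323 probes were above background on an array, with array medians of 117.6 to 125.4 signal units. Normalised log2 signals correlated at 0.993 between the shT7#1 arrays and at 0.994 between the shCntrl arrays. TRPM7's probe was not above background on any array, so these data do not check the knockdown. SOX4 fell by 2.12 log2 units in shT7#1 cells (adjusted p = 0.00218). The mesenchymal markers VIM, CD44, MSN and CAV1 were above background on all 4 arrays and SPARC on 1. Of 6 genes listed beforehand as absent or low in this line, ESR1, PGR and CDH1 were above background on none. The other genes of that list, ERBB2, EPCAM and GATA3, were above background on all 4. Of 5 leukocyte markers, 3 were above background on no array, PTPRC and CD3E among them, while CD14 was on all 4 and LYZ on 1. Of 5 endothelial markers, CDH5, VWF, KDR and TEK were above background on none and PECAM1 on 3. Of 5 fibroblast markers, COL1A2 and PDGFRB were above background on all 4 arrays, LUM on 3, COL1A1 on 1 and DCN on none.

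Of the 36 genes, 2 changed: BECN1 and MAP1LC3B were lower in shT7#1 cells. A gene was tested where a probe was above background (detection p under 0.05) on at least 2 of the 4 arrays, and its brightest such probe stood for it. This left 35 of the 36 genes, and 33 of these were above background on all 4 arrays. A gene was called where the adjusted p of limma's moderated test, over all 14731 genes tested, was under 0.05. The 2 called genes are 5.71% of the 35, against 6.50% of all genes tested, a share close to that background. In the downward direction, 3.55% of all genes were called. None of the 35 was called higher by limma, against 2.95% of all genes, and 6 of them were higher with an unadjusted p under 0.05.

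Looser measures gave shares somewhat above the background. With an unadjusted p under 0.05 there were 12 of the 35 genes (34.3%), 6 higher and 6 lower, against 25.9% of all genes tested (12.4% higher and 13.5% lower). In 23 of the 35 genes (65.7%), 9 above and 14 below, the shT7#1 values did not overlap the shCntrl values, against 55.7% of all genes (27.5% above and 28.2% below). The log2 change was negative in 22 of the 35 genes (62.9%), against 7370 of the 14731 genes tested. The median log2 change was -0.07 over the 35 genes, while that over all genes was -0.0003. This difference is smaller than the SD of 0.105 by which the set's median signal varied between arrays of a group. No gene of the set changed by a full log2 unit, and 19 of the 35 changed by less than 0.25.

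**Figure D1:**
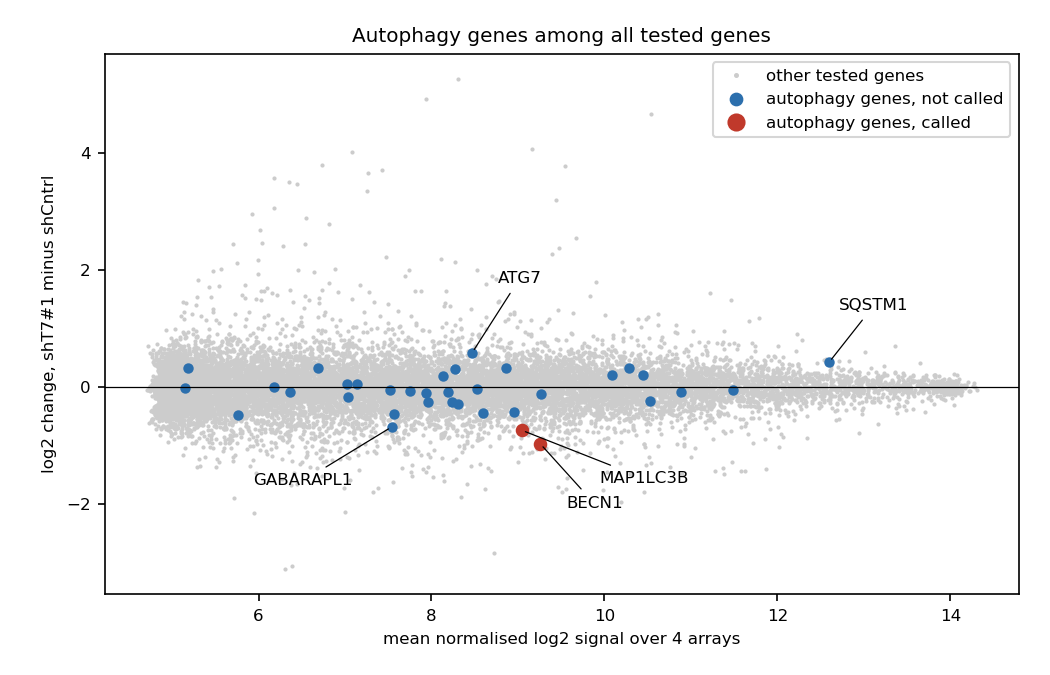
Change of each tested gene in log2 units (shT7#1 minus shCntrl) against its mean normalised log2 signal over 4 arrays. The 35 autophagy genes lie within the cloud of other genes, with BECN1 (-0.97) and MAP1LC3B (-0.73) the called genes of the set.

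The phosphatidylinositol 3-kinase complex held the larger of the called changes. BECN1, encoding the scaffold Beclin 1, had normalised log2 signals of 8.68 and 8.87 on the shT7#1 arrays, against 9.70 and 9.78 on the shCntrl arrays. Both shT7#1 arrays lay well under both shCntrl arrays. The deposited signals before any correction showed the same order, with 474 and 599.7 units on the shT7#1 arrays and 882 and 1024 units on the shCntrl arrays. BECN1 fell by 0.97 ± 0.13 log2 units (SE, n = 2 arrays each), a level of 0.512 of that in shCntrl cells, with a 95% interval of the log2 change from -1.28 to -0.65 and an adjusted p of 0.0168. In the authors' deposited table the ratio was 0.5. Among all genes tested, 1.24% had a log2 change at or under that of BECN1. The call was lost when any 1 of the 4 arrays was left out (adjusted p between 0.0732 and 0.101), although the log2 change stayed between -1.06 and -0.87.

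The other members of this complex were not called. PIK3C3, the catalytic lipid kinase, differed by -0.29 ± 0.14 log2 units, with 8.16 and 8.17 on the shT7#1 arrays and 8.32 and 8.60 on the shCntrl arrays. Its regulatory partner PIK3R4 differed by -0.09 and its groups overlapped. UVRAG, which replaces ATG14 in the endosomal form of the complex, had 2 detected probes with opposite signs, 0.19 for the brighter and -0.40 for the dimmer, which was above background on 3 arrays. AMBRA1, a regulator of BECN1, was near background, with log2 signals of 5.39 and 5.29 on the shT7#1 arrays against 5.52 and 4.52 on the shCntrl arrays. The last of these values was not above background, and the difference of 0.32 ± 0.32 was about the size of its error.

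The ATG8 family, whose members coat the growing membrane, split by gene. MAP1LC3B, which encodes LC3B, the protein most used to mark autophagosomes, had log2 signals of 8.67 and 8.68 on the shT7#1 arrays, against 9.44 and 9.38 on the shCntrl arrays. The arrays of each group lay close together and the groups far apart. In deposited units the signals were 471 and 534 on the shT7#1 arrays and 753 and 802 on the shCntrl arrays. MAP1LC3B fell by 0.73 ± 0.11 log2 units (SE, n = 2 arrays each), to 0.602 of the level in shCntrl cells, with a 95% interval from -1.01 to -0.45 and an adjusted p of 0.0257. The ratio in the authors' deposited table was 0.59. As with BECN1, leaving out any 1 array ended the call (adjusted p between 0.101 and 0.137), while the log2 change stayed between -0.77 and -0.70. The near-identical gene MAP1LC3B2 had a probe entry of its own, which did not pass the detection filter, so that gene was not tested. Whether the MAP1LC3B probe also reads MAP1LC3B2 was not tested.

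GABARAPL1, a relative of GABARAP, showed the next largest decrease in the set without passing the threshold. Its log2 signals were 7.33 and 7.08 on the shT7#1 arrays and 7.69 and 8.07 on the shCntrl arrays, a difference of -0.68 ± 0.17 (adjusted p = 0.0809). Its groups did not overlap, but its arrays were spread more widely than those of MAP1LC3B. MAP1LC3A, encoding LC3A, differed in the opposite direction, with 9.08 and 8.97 on the shT7#1 arrays against 8.71 and 8.70 on the shCntrl arrays, a difference of 0.32 ± 0.12 (adjusted p = 0.159). GABARAP differed by -0.17 and GABARAPL2 by -0.08, each with overlapping groups. The family as a whole therefore had 1 called member of 5 and a median log2 change of -0.17. Over all genes tested 6.50% were called, and with only 5 genes nothing is read from the family's count.

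**Figure D2:**
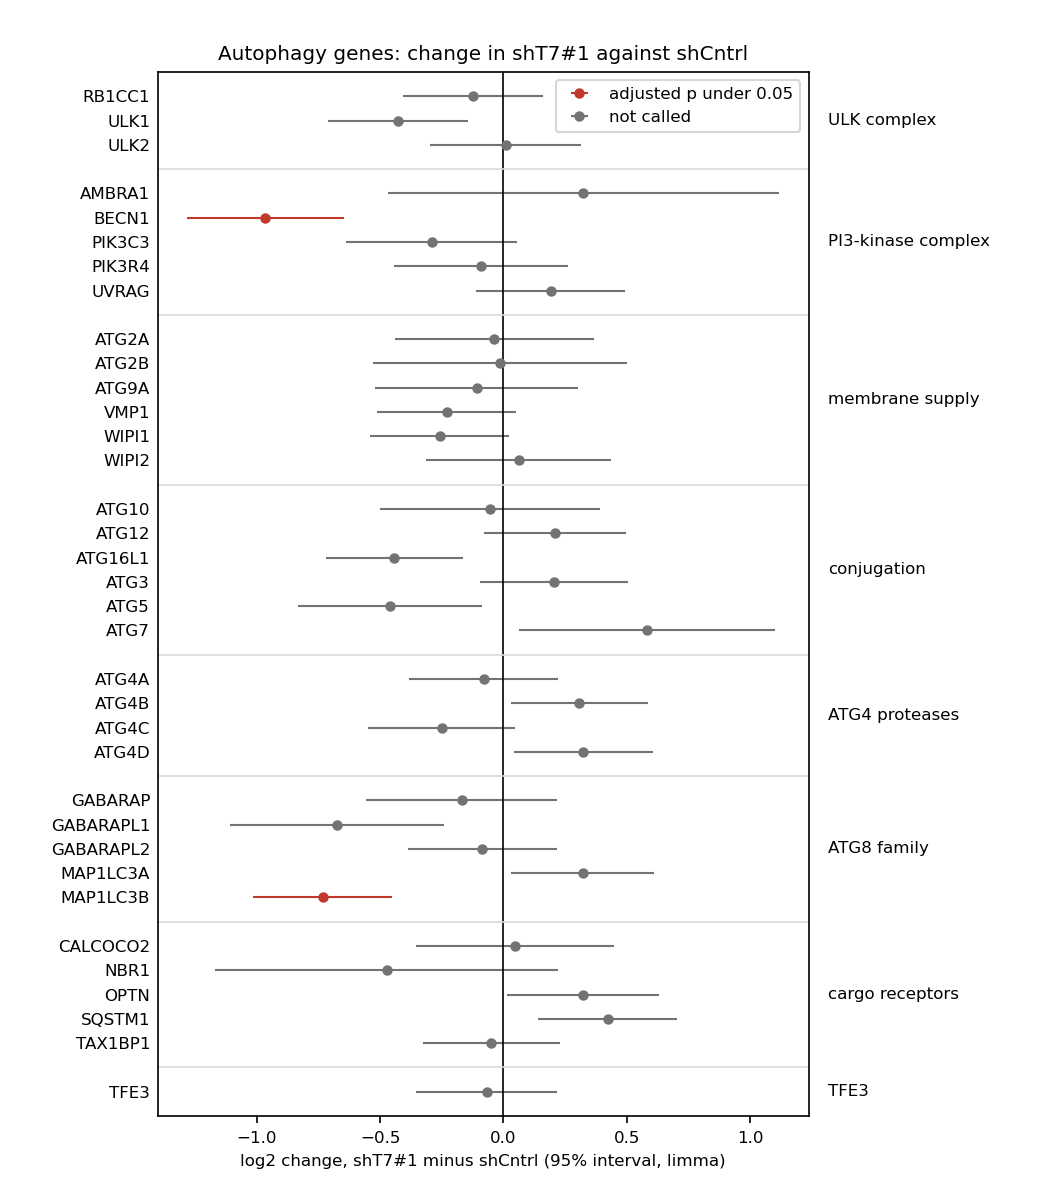
Log2 change (shT7#1 minus shCntrl) of the 35 tested autophagy genes with 95% intervals from limma, grouped by role. The intervals of BECN1 (-1.28 to -0.65) and MAP1LC3B (-1.01 to -0.45) have the upper ends farthest below 0. Intervals of ATG7, SQSTM1, MAP1LC3A, ATG4B, ATG4D and OPTN lie wholly above 0 without a call. Those of GABARAPL1, ULK1, ATG5 and ATG16L1 lie wholly below 0, also without a call.

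The ULK complex had no called gene among 3. ULK1, the kinase that starts autophagosome formation, had log2 signals of 8.78 and 8.70 on the shT7#1 arrays, against 9.16 and 9.18 on the shCntrl arrays. The groups did not overlap, and the difference was -0.43 ± 0.11 (adjusted p = 0.0856). A second ULK1 probe gave nearly the same value, -0.42. Its paralog ULK2 differed by 0.01, with overlapping groups. RB1CC1, the scaffold also called FIP200, differed by -0.12.

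The 6 conjugation genes differed in both directions, and none was called. ATG7 encodes the E1-like enzyme that activates both ATG12 and the ATG8 proteins. It had log2 signals of 9.03 and 8.49 on the shT7#1 arrays, against 8.31 and 8.05 on the shCntrl arrays. The groups did not overlap, but the first shT7#1 array lay far above the second. The difference was 0.58 ± 0.21 (adjusted p = 0.155), the largest positive one in the set, and was 0.32 without the first shT7#1 array. ATG5 and ATG16L1, which with ATG12 form the complex that directs ATG8 lipidation, lay lower in shT7#1 cells. ATG16L1 had 8.39 and 8.35 on the shT7#1 arrays against 8.83 and 8.80 on the shCntrl arrays, a difference of -0.44 ± 0.11 (adjusted p = 0.0781), and its second probe gave -0.23. ATG5 had 7.49 and 7.18 on the shT7#1 arrays against 7.86 and 7.72 on the shCntrl arrays, a difference of -0.46 ± 0.15 (adjusted p = 0.128). ATG12 differed by 0.21 and the E2-like enzyme ATG3 by 0.20, each with the shT7#1 arrays above the shCntrl arrays. The shT7#1 arrays thus lay above for ATG7, ATG12 and ATG3 and below for ATG5 and ATG16L1, all short of the threshold. The E2-like enzyme ATG10 differed by -0.05 with overlapping groups, and its probes had opposite signs.

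**Figure D3:**
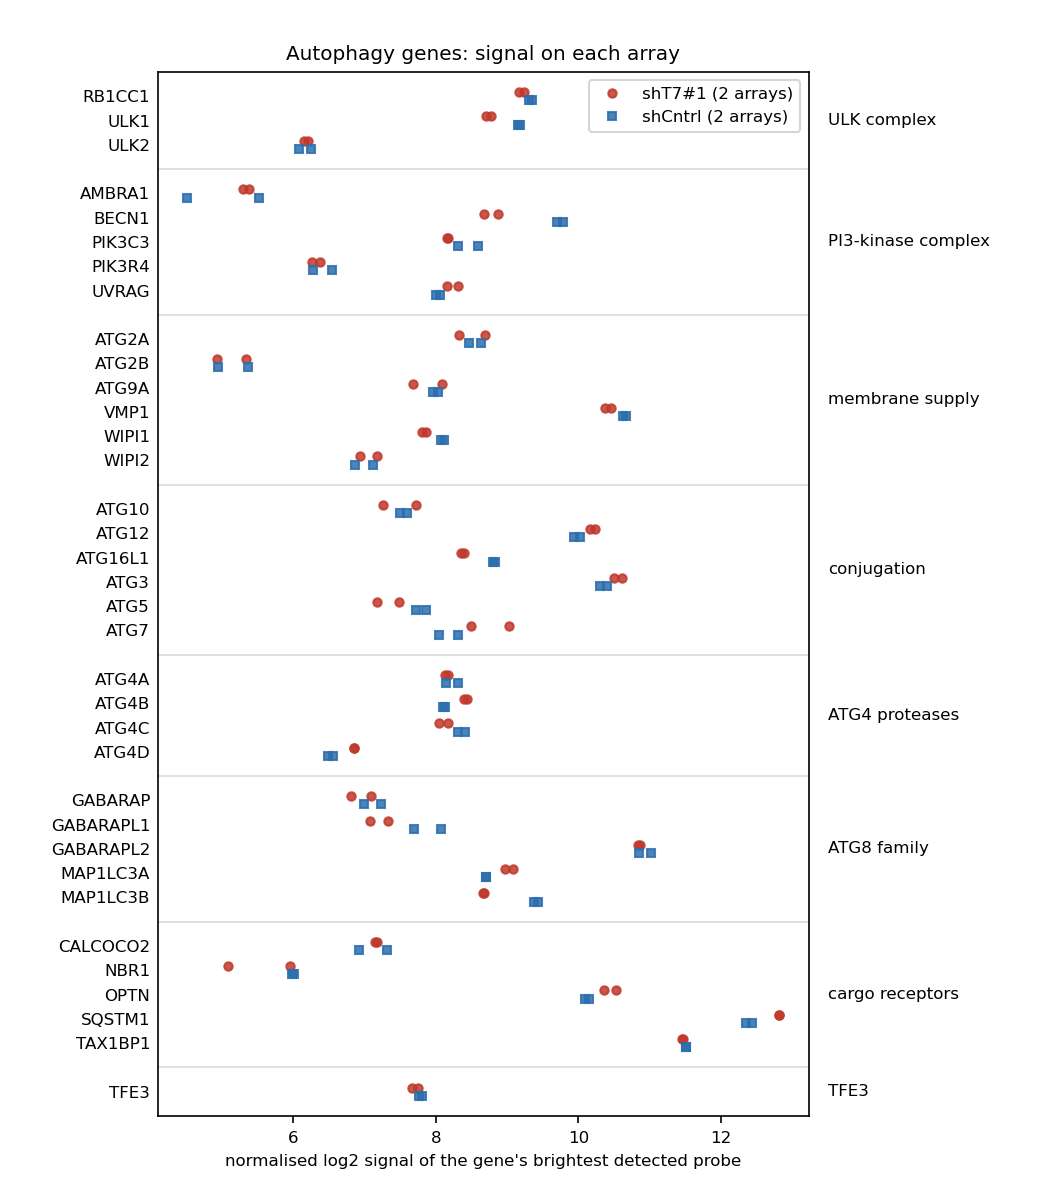
Normalised log2 signal on each of the 4 arrays for the 35 tested autophagy genes by role, circles for shT7#1 and squares for shCntrl. BECN1 (8.68 and 8.87 against 9.70 and 9.78) and MAP1LC3B (8.67 and 8.68 against 9.44 and 9.38) show separated groups.

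The ATG4 proteases trim ATG8 proteins before lipidation and release them afterwards. None of the 4 was called by limma, and 2 had an unadjusted p under 0.05, both higher. Over all genes tested, 12.4% were higher at that threshold, and with only 4 genes nothing is read from the count. ATG4B, the form most active on LC3 proteins, had 8.40 and 8.44 on the shT7#1 arrays against 8.13 and 8.10 on the shCntrl arrays (difference 0.31, adjusted p = 0.161). ATG4D had 6.85 on both shT7#1 arrays against 6.49 and 6.57 on the shCntrl arrays (difference 0.32, adjusted p = 0.149). For both genes the shT7#1 arrays lay above the shCntrl arrays by more than the arrays of a group differed, but the second probe of ATG4D gave only 0.03. ATG4C differed by -0.25 without overlap. ATG4A differed by -0.08 on its brighter probe and by 0.17 on the other.

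Genes that supply and shape the membrane were close to 0 in change, with a median of -0.07 over 6. The lipid-binding WIPI1 differed by -0.26 ± 0.11 and the lipid scramblase VMP1 by -0.23 ± 0.11, each with the shT7#1 arrays below the shCntrl arrays and neither called. WIPI2 differed by 0.06, and the lipid transfer proteins ATG2A and ATG2B by -0.04 and -0.02, all with overlapping groups. ATG9A, the scramblase carried on vesicles, differed by -0.11 on its brighter probe. Its second probe had 7.82 and 7.45 on the shT7#1 arrays against 8.13 and 8.32 on the shCntrl arrays, a difference of -0.58 ± 0.17 with an adjusted p of 0.117 in a fit over all probes. The probes of ATG9A thus shared a sign but not a size.

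**Figure D4:**
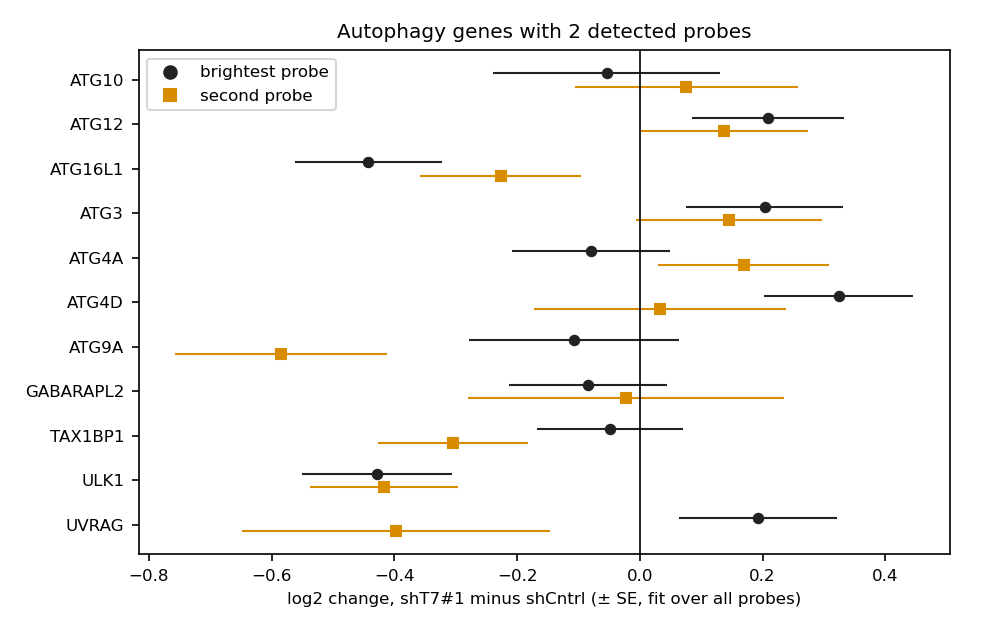
Log2 change (shT7#1 minus shCntrl, ± SE, from a fit over all probes) for the 11 autophagy genes with 2 detected probes, brightest probe and second probe. The signs differ for ATG10, ATG4A and UVRAG and match for the other 8.

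Taking every probe on its own gave the same called genes. In the fit over 20366 probes, 46 of the 58 probes of the set passed the detection filter. Of these, the probes of BECN1 (adjusted p = 0.0223) and MAP1LC3B (adjusted p = 0.0351) were called, against 4.66% of all probes. Neither gene had a second detected probe.

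The cargo receptors had no called gene among 5. SQSTM1, encoding p62, which binds ubiquitin and LC3 and is itself degraded by autophagy, had a log2 signal of 12.81 on both shT7#1 arrays, against 12.43 and 12.34 on the shCntrl arrays. The equal values come from equal ranks under quantile normalisation, since the deposited signals were 7011 and 7801 units on the shT7#1 arrays and 5287 and 5463 units on the shCntrl arrays. The difference of 0.42 ± 0.11 did not pass (adjusted p = 0.0883). OPTN, a receptor in mitophagy, had 10.36 and 10.53 on the shT7#1 arrays against 10.09 and 10.15 on the shCntrl arrays, a difference of 0.32 ± 0.12 (adjusted p = 0.178). For both receptors the shT7#1 arrays were the higher ones. NBR1 had 5.09 and 5.95 on the shT7#1 arrays against 5.98 and 6.01 on the shCntrl arrays. Its difference of -0.47 ± 0.28 rested on the first shT7#1 array, without which it was -0.04. CALCOCO2, also called NDP52, differed by 0.05 and TAX1BP1 by -0.05, with -0.30 on the second TAX1BP1 probe.

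TFEB and TFE3 are transcription factors that activate lysosomal and autophagy genes. TFE3 differed by -0.07, with 7.67 and 7.76 on the shT7#1 arrays against 7.80 and 7.76 on the shCntrl arrays. TFEB was above background on a single array, the second shCntrl one, and was not tested. Its log2 signals were 4.40 and 4.36 on the shT7#1 arrays and 4.53 and 4.93 on the shCntrl arrays. The authors' deposited table lists TFEB at a ratio of 0.47, for a probe not above background on 3 of the 4 arrays here.

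Both factors bind the letters CACGTG, which read the same on both strands, so promoters of the set were searched for them. The search covered RefSeq promoters (GRCh38.p14, the 250 bases before a transcript start) of 32 of the genes, 42 promoters in all. No promoter of ATG4D, MAP1LC3A, RB1CC1 or UVRAG was searched, so nothing is said of these genes. CACGTG was found in 1 of the 42 (2.38%), that of ATG3, against 6.34% of the 35116 promoters searched. The extended form TCACGTG, which overlaps it, was in the same promoter, against 3.31% of all. Stretches are given from the promoters of MAP1LC3B, a called gene, and ATG3, the gene with the match, to show a sequence without and with the motif, which stands in capitals. The window searched for BECN1, the other called gene, also lacked these letters. That window (chr17:42823880-42824129, minus strand) lies inside the gene's annotated span, which reaches 42824282. The bases before BECN1's outermost start were therefore not searched. The stretches are the part nearest the start, 214 bases for MAP1LC3B and 30 bases for ATG3, rather than the whole window. The MAP1LC3B stretch lies at chr16:87392122-87392335 on the plus strand and the ATG3 stretch at chr3:112561963-112561992 on the minus strand, each ending at the base before the start.
MAP1LC3B: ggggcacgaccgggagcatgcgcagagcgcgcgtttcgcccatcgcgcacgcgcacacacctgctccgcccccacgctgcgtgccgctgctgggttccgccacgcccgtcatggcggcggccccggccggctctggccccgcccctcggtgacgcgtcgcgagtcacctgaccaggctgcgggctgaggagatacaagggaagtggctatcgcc
ATG3: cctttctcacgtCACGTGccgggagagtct
The match in ATG3 is a description of these letters only, and ATG3 itself was not called.

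Other genes of the pathway were taken from lists of known members and regulators. Of 26 further core autophagy genes tested, 0 rose and 0 fell by limma, with 0 higher and 4 lower at an unadjusted p under 0.05, and the median log2 change was 0.04. The largest difference among them, -0.53, was that of VAMP8, a SNARE of autophagosome and lysosome fusion (adjusted p = 0.132). Of 20 further genes of selective autophagy, 1 fell and 0 rose, with 4 lower and 0 higher at an unadjusted p under 0.05, and the median was -0.15. For these and the following lists, the shares over all genes were 3.55% lower and 2.95% higher by limma, and 13.5% lower and 12.4% higher unadjusted, and with so few calls nothing is read from a list's count. The one that fell was BNIP3L, a mitophagy receptor of the outer mitochondrial membrane. It had log2 signals of 9.81 and 9.63 on the shT7#1 arrays against 10.71 and 10.61 on the shCntrl arrays, a decrease of 0.94 that set the groups clearly apart (adjusted p = 0.0175). A second BNIP3L probe gave -0.54 (adjusted p = 0.0978 in the fit over all probes).

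Among 29 tested genes of mTORC1 and AMPK signalling, 1 fell and 0 rose, with 3 lower and 1 higher at an unadjusted p under 0.05. This was DDIT4, the stress-induced mTORC1 inhibitor REDD1, with 9.95 and 9.96 on the shT7#1 arrays against 11.01 and 10.94 on the shCntrl arrays, a decrease of 1.02 (adjusted p = 0.0112). Of 31 lysosomal genes known as TFEB or TFE3 targets, 3 fell and 0 rose, with 6 lower and 2 higher at an unadjusted p under 0.05, and the list's median was -0.02. The protease CTSD had 9.53 and 9.44 on the shT7#1 arrays against 10.45 and 10.35 on the shCntrl arrays (log2 change -0.91, adjusted p = 0.0163). CTSB, also a lysosomal protease, fell by 0.72 (adjusted p = 0.0289), and its second probe gave -0.59 (adjusted p = 0.0569 in the fit over all probes). The peptidase TPP1 fell by 0.62 (adjusted p = 0.0452), a call that was also lost with median scaling (adjusted p = 0.056) and without the detection filter (0.062). The calls among lysosomal genes were thus for hydrolases, while the membrane proteins LAMP1 and LAMP2 differed by -0.02 and -0.17 and were not called. Leaving out any 1 array ended each of the calls of BNIP3L, DDIT4, CTSD, CTSB and TPP1, with adjusted p between 0.0639 and 0.179, while the log2 changes stayed close to those given (-1.06 to -0.98 for DDIT4 and -0.68 to -0.56 for TPP1). With the authors' processed values these 5 genes were not called either (adjusted p between 0.0512 and 0.106).

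**Figure D5:**
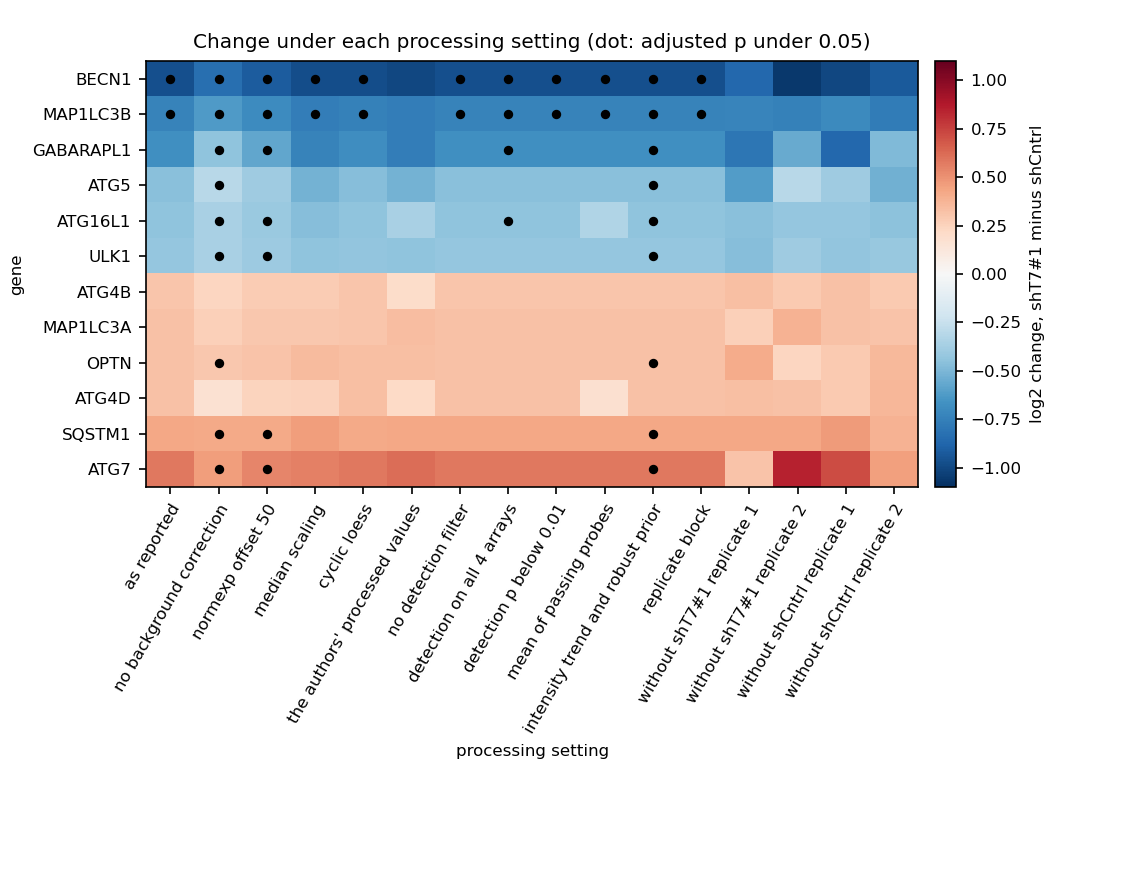
Log2 change (shT7#1 minus shCntrl, colour) of the 12 autophagy genes with an unadjusted p under 0.05, as reported and under each other processing setting, with a dot where the adjusted p was under 0.05. BECN1 and MAP1LC3B carry a dot as reported and in 10 of the 11 other settings that keep all 4 arrays, and in none that leaves 1 array out.

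None of these 12 genes changed sign under any of the 15 alternative settings run, whereas the number of calls differed between settings. With no background correction, 9 of the 35 genes of the set were called, 3 higher and 6 lower. Over all genes tested, 1161 rose and 1262 fell in that setting, 16.4% called against 6.50% as reported, so calls became more frequent over all genes too. The authors' processed values gave no call in the set and 112 rises and 99 falls over all genes (1.5% called). BECN1 and MAP1LC3B were called in 10 of the 11 settings that kept all arrays, the exception being the authors' processed values (adjusted p = 0.0661 for BECN1 and 0.0746 for MAP1LC3B).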

How the data were processed

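RNA from 4 samples, 2 per group, was read on bead arrays. The deposited table of unnormalised data gave a linear signal intensity and a detection p-value per probe and array. The submitters' processing notes name GenomeStudio 2011.1. Per the file headers, the authors' second table held log2 values normalised with RMA in ArrayStar, and a further table of the authors held each gene's fold ratio (shT7#1 divided by shCntrl, linear), with no error.

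Here, limma 3.58.1 (R 4.3.3) turned intensities into log2 values through normexp background correction inferred from the detection p-values (offset 16) and quantile normalisation. The fit had the group as its only term, with 2 residual and 3.66 prior degrees of freedom, and Benjamini-Hochberg adjustment over all 14731 genes. Tests were two-sided. Errors of log2 changes are standard errors, and only 4 arrays limit the precision. Symbols were updated through a RefSeq gene table. No source used here gives slides or scan batches, so neither was modelled. The arrays share replicate numbers, but with 2 pairs and deviations correlated at 0.125 the numbers were not taken as pairing. The fit was also run on simulated arrays, with independent noise of the same size for every gene. That run checked the code and does not bear on the calls given here. The genes and lists were chosen with earlier results of these data known. All 36 genes are accounted for, and in the other lists the genes called, or else the largest change, are named.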

Additional observations from a re-analysis of the deposited data

How the results depend on the processing

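Over all genes, higher and lower calls numbered 434 and 523 as reported. They were 1161 and 1262 without background correction, 962 and 1086 with a normexp offset of 50, 699 and 818 with detection on all 4 arrays, 1180 and 1305 with an intensity trend and robust prior, and 112 and 99 with the authors' processed values. Among the autophagy genes they were 3 and 6, 2 and 5, 0 and 4, 3 and 6, and 0 and 0 in the same order of settings. The shares called over all genes were 16.4%, 13.9%, 12.1%, 16.9% and 1.5% in that order, against 6.50% as reported. The set had 35 tested genes in these settings, but 33 with detection on all 4 arrays. With the replicate number as a block, which was not taken as pairing, 563 rose and 676 fell (8.41% called), and the set had 0 higher and 2 lower calls. Leaving out 1 array gave 69 to 86 higher and 38 to 53 lower calls over all genes and 0 in the set. The median log2 change of the set kept its sign under all 15 alternatives, which reuse the same 4 arrays and so add no independent evidence of a shift. The sign turned for 11 genes of the set, none of them called or with an unadjusted p under 0.05. Median scaling turned ULK2 (-0.0549), CALCOCO2 (-0.0178) and WIPI2 (-0.0023), and cyclic loess turned ATG2B (0.0208). The authors' values turned WIPI2 (-0.0411), ATG10 (0.0224) and UVRAG (-0.34). The mean of passing probes turned ATG10 (0.0106), UVRAG (-0.10) and ATG4A (0.0445). With 1 array left out, the change ranged from -0.0741 to 0.0927 for ULK2, -0.15 to 0.24 for CALCOCO2, -0.0619 to 0.19 for WIPI2, -0.23 to 0.20 for ATG2B, -0.29 to 0.18 for ATG10, -0.22 to 0.14 for ATG2A, -0.31 to 0.10 for ATG9A, -0.23 to 0.0467 for PIK3R4 and -0.18 to 0.83 for AMBRA1. Apart from fewer arrays in the last settings, the cause was not tested. Signal near background limits AMBRA1, ATG2B, NBR1 and TFEB.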
